A study of Mus musculus with 6 samples.

Results

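Bone morphogenetic protein (BMP) signalling was examined through 10 genes: the ligands Bmp2, Bmp4 and Bmp6, the secreted regulator Bmper, the receptors Acvrl1 (ALK1), Bmpr2 and Eng (endoglin), and the target genes Id1, Id2 and Id3. Members were chosen by pathway role with earlier results of these data known, as were the gene lists used below. They were found by matching probe accessions to these symbols. All 10 were measured, among 16370 genes tested. Where several probes matched a gene, the probe with the highest mean signal over the 6 arrays stood for it, and this applied to Bmp4 and Acvrl1.

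The animals were C57BL6 males, 10 weeks old, which fasted for 16 h before an i.p. injection of LPS at 20 mg per kg. Either saline (3 mice) or recombinant human thrombomodulin (rhTM, 3 mice) followed at 3 h and at 24 h, and lungs were collected 30 h after LPS. Both groups carried the same LPS challenge, and mice without LPS were not analysed here. Each lung was read on a separate 1-colour Agilent SurePrint G3 Mouse array, so replicates were separate animals and the number of arrays limited the precision.

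BMP ligands bind paired type I and type II serine/threonine kinase receptors at the cell surface, which phosphorylate SMAD1, SMAD5 and SMAD9, and these enter the nucleus with SMAD4 to induce genes such as the Id family. In blood vessels, ALK1 and BMPR2 with the co-receptor endoglin form the receptor complex of endothelial cells, and inherited loss of these receptors causes hereditary haemorrhagic telangiectasia or pulmonary arterial hypertension. Id proteins lack a DNA-binding domain and hold basic helix-loop-helix factors away from DNA.

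The level of a gene is given as relative signal, which is the processed spot signal divided by the 75th percentile of the same array. Levels of different genes come from different probes and were not set against each other. Depth of signal was similar across arrays, with 36243 to 40647 of 56605 probes well above background. The lung markers Sftpc of alveolar type II cells, Scgb1a1 of airway club cells, Ager of alveolar type I cells and Cdh5 of endothelium were well above background on all 6 arrays. Saline replicate 1 stood apart in its spike-in controls, with a slope of 0.826 against 1.07 to 1.09 on the other arrays. Saline replicate 1 and rhTM replicate 3, the pair of arrays on slide 2, also stood apart in Cd4, with log2 signals of 4.50 and 4.28 against 1.59 to 2.07 on slide 1, whereas the T-cell marker Cd3e lay between 0.52 and 0.67 on all arrays. Notch3 was high on the same pair, at 5.59 and 5.67 against 4.43 to 4.79. The value table deposited with the arrays (called the authors' table here) held the scanner values of rhTM replicate 2 in the column of saline replicate 1 and the reverse, with 99.9% of probes equal to within 0.1%, and which assignment was right could not be settled. Values below follow the scanner output, and those of the table are named as such.

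No member passed the test. By limma with Benjamini-Hochberg adjustment over all 16370 genes, 0 of the 10 members and 0% of all genes were past an adjusted p of 0.05, and the adjusted p was 0.9999 for each member. At an unadjusted p under 0.05, limma counted 1 member, Eng, and 306 genes, which was 1.87% of those tested. The methods' t-test likewise counted 1 member and 340 genes at that level, and past the methods' thresholds on fold and p it counted 0 members and 1 of all genes. Of the 10 members, 5 had a higher and 5 a lower mean log2 signal in rhTM-treated mice, and their median log2 fold change was -0.013. Over all genes 50.7% were higher and the median was 0.0026. Groups did not overlap for 1 member, Eng, with every rhTM array below every saline array. Among all genes, groups did not overlap for 5.52%, with 2.57% below and 2.95% above. In the authors' table, 3 members were higher and 7 lower with a median of -0.12, and groups did not overlap for 1 member, Id1, with rhTM above. The share of all genes without overlap in the table was 21.7%, with 12% below and 9.68% above. The table likewise put 0 genes past the threshold by limma, with 0 members and 14% of genes at an unadjusted p under 0.05.

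**Figure D1:**
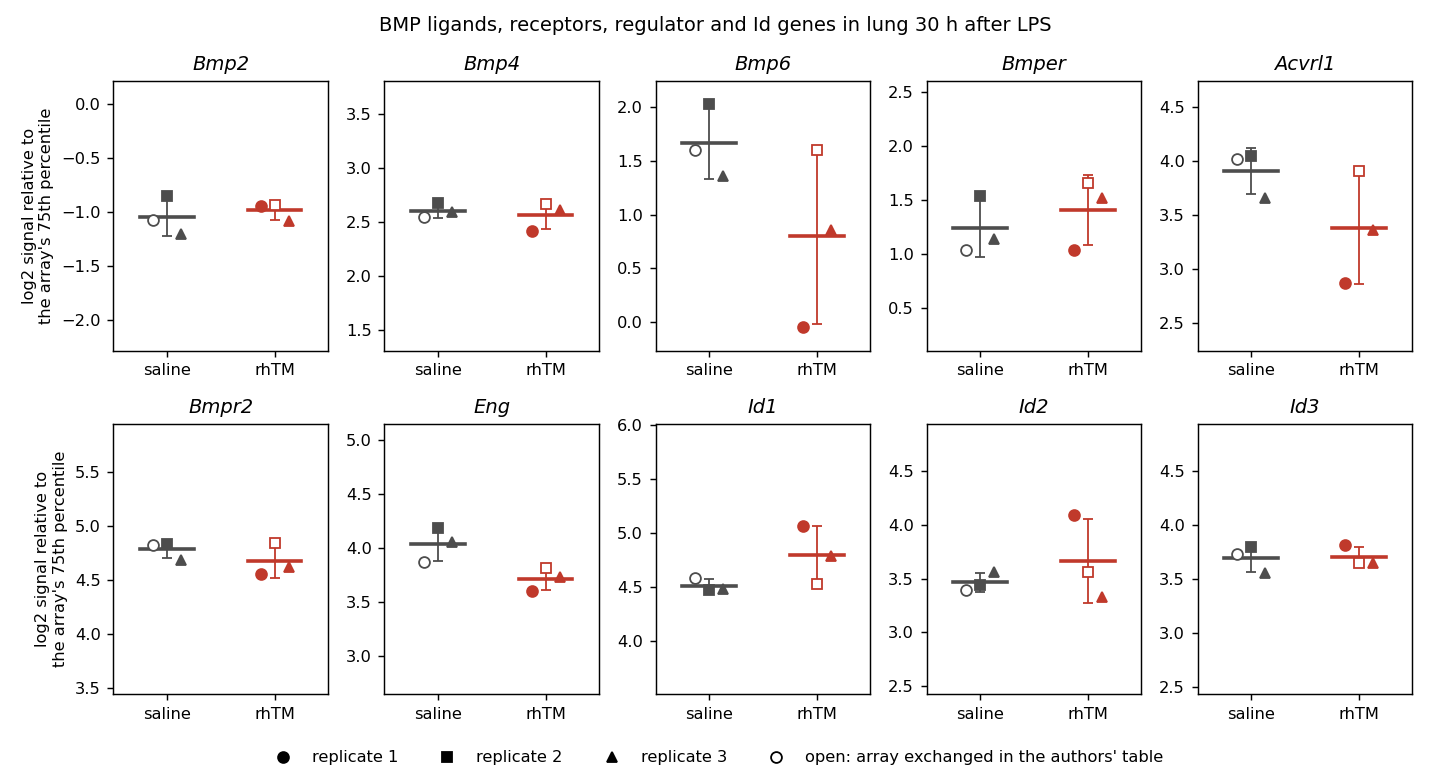
Log2 relative signal of each member on every array, in 1 panel per gene with the same span on each vertical axis. Bars are group means with the SD of 3 mice, and open symbols are the pair of arrays exchanged in the authors' table. Bmp6 and Acvrl1 spread most, with rhTM replicate 1 lowest, and Eng is the gene whose groups do not overlap.

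Promoter sequences from RefSeq (GRCm38.p6) were held for 7 members, and they are shown where a SMAD motif was found, since SMAD1 and SMAD5 act through such GC-rich elements. The motif GGCGCC, which reads the same on both strands, was present in 2 of these 7 promoters and in 11.9% of all 32817 promoters of the same length. The SMAD box GTCTAGAC, also the same on both strands, was present in 0 of 7 and in 0.213% of all. In the 250 bases upstream of the start site, written 5′ to 3′ on the strand of the gene with the motif in capitals, the match lay at -105 in Bmpr2 (chr1:59764029-59764278, plus strand) and at -231 in Id2 (chr12:25096093-25096342, minus strand).
Bmpr2: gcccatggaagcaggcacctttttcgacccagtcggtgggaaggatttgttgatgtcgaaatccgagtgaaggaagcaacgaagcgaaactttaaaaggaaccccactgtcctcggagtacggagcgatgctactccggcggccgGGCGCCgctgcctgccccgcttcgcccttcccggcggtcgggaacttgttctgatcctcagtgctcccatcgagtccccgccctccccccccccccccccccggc
Id2: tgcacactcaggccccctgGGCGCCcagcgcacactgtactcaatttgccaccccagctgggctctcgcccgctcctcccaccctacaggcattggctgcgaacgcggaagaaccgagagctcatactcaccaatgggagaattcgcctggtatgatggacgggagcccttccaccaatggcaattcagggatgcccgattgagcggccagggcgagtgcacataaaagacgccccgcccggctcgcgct
Neither motif was found in the promoters of Bmp4, Bmp6, Eng, Id3 or Bmper, and those of Bmp2, Acvrl1 and Id1 were not searched. A match describes letters in this window and not a bound site. Bmpr2 and Id2 had log2 fold changes of opposite sign, -0.11 and 0.20.

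Among the ligands, Bmp6, which is produced by endothelial cells and also drives hepcidin, had the largest difference of all members. Its relative signal was 3.02, 4.05 and 2.57 in the saline-treated mice and 0.969, 3.03 and 1.82 in the rhTM-treated mice. rhTM replicate 1 lay lowest and saline replicate 2 highest, while rhTM replicate 2 was level with saline replicate 1, so the groups overlapped. Group means were 3.21 ± 0.759 and 1.94 ± 1.04 (SD, n = 3 each). The log2 fold change was -0.85 (SE 0.41, 95% interval -1.82 to 0.12), which is 0.554 of the saline level, with p = 0.3 by an exact two-sided permutation test whose smallest possible p is 0.1. Of all genes, 0.8% differed more in absolute log2 fold change, and 2.46% had a wider range over the 6 arrays than the 2.06 log2 units of Bmp6. Without rhTM replicate 1 the log2 fold change was -0.43, and without rhTM replicate 2 it was -1.25. Exchange of saline replicate 1 and rhTM replicate 2 left it at -0.86, since both arrays read nearly the same value.

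Bmp4, a ligand made by lung mesenchyme and endothelium, varied little. Relative signal was 5.87, 6.41 and 6.03 with saline and 5.37, 6.36 and 6.11 with rhTM. rhTM replicate 1 was lowest again, and the other arrays of both groups were interleaved. Between the groups the log2 fold change was -0.04 (95% interval -0.33 to 0.25), a fold between 0.796 and 1.19, with an exact permutation p of 0.8. A second probe for Bmp4 gave -0.14, and the authors' table gave -0.12.

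Bmp2, the ligand closest in sequence to Bmp4, was measured at 0.477, 0.556 and 0.435 in saline-treated lungs and 0.521, 0.526 and 0.473 in rhTM-treated lungs. All 3 rhTM arrays lay within the range of the saline arrays. Its log2 fold change was 0.057 (95% interval -0.27 to 0.38, exact permutation p = 0.7) and turned to -0.039 in the authors' table.

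Bmper encodes a secreted protein that binds BMPs and both restrains and promotes their action on endothelium. Relative signal was 2.05, 2.9 and 2.21 with saline and 2.05, 3.17 and 2.86 with rhTM. The lowest arrays of the groups read the same to the digits given, and the highest was rhTM replicate 2. The log2 fold change was 0.17 (95% interval -0.34 to 0.67, exact permutation p = 0.7). In the authors' table, where rhTM replicate 2 stands among the saline mice, it was -0.25 (adjusted p = 0.5684 by limma), so the direction for Bmper depended on that assignment.

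Of the receptors, Acvrl1, the type I receptor for BMP9 and BMP10 in endothelium, had the second largest difference. Relative signal was 16.3, 16.6 and 12.7 in saline-treated mice and 7.32, 15 and 10.2 in rhTM-treated mice. rhTM replicates 1 and 3 lay below every saline array, and rhTM replicate 2 lay among them. Means were 15.2 ± 2.17 and 10.8 ± 3.86 (SD, n = 3 each), with a log2 fold change of -0.53 (SE 0.27, 95% interval -1.18 to 0.11, exact permutation p = 0.2). Of all genes, 3.56% differed more. A second probe for Acvrl1, which the array annotates to another transcript of the gene, gave -0.75. Without rhTM replicate 1 the value was -0.28, without rhTM replicate 2 it was -0.80, and in the authors' table with all mice it was -0.46.

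Eng, the co-receptor that presents ligand to ALK1, was the only member whose groups separated. Relative signal was 14.6, 18.1 and 16.6 with saline and 12.1, 14 and 13.2 with rhTM. Every rhTM array lay below every saline array, with a gap that was small beside the spread within the saline group. Means were 16.5 ± 1.74 and 13.1 ± 0.95 (SD, n = 3 each). The log2 fold change was -0.32 (SE 0.13, 95% interval -0.64 to -0.0069), which is 0.8 of the saline level, and the exact permutation p was 0.1, the smallest that 3 arrays against 3 allow. Exchange of the pair of arrays gave -0.28 with overlapping groups.

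Bmpr2, the type II receptor, read 28.5, 28.7 and 25.8 with saline and 23.5, 28.8 and 24.5 with rhTM. rhTM replicates 1 and 3 were the lowest arrays and rhTM replicate 2 the highest. The log2 fold change of -0.11 (95% interval -0.42 to 0.20, exact permutation p = 0.4) corresponds to a fold between 0.747 and 1.15, and it was -0.053 without rhTM replicate 1 and -0.20 without rhTM replicate 2. All 3 receptors thus had a lower mean with rhTM, none of them past the adjusted threshold.

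Id1, the Id gene most often used as a readout of ALK1 activity in endothelium, ran the other way. Relative signal was 23.9, 22.1 and 22.2 in saline-treated lungs and 33.5, 23.1 and 27.7 in rhTM-treated lungs. rhTM replicates 1 and 3 were above every saline array, while rhTM replicate 2 lay below saline replicate 1. Means were 22.8 ± 1.02 and 28.1 ± 5.18 (SD, n = 3 each), with a log2 fold change of 0.29 (SE 0.16, 95% interval -0.091 to 0.67, exact permutation p = 0.2). In the authors' table the difference was 0.32, the groups did not overlap and the adjusted p was 0.3681 by limma. Without rhTM replicate 1 the scanner value was 0.15.

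Id2, which is also needed for lymphoid development, read 10.5, 10.9 and 11.8 with saline and 17.1, 11.8 and 10.1 with rhTM. One mouse, rhTM replicate 1, was well above the rest, and rhTM replicate 3 was the lowest of all. Its log2 fold change was 0.20 (95% interval -0.29 to 0.69, exact permutation p = 0.6), and it was -0.018 without rhTM replicate 1 and 0.085 in the authors' table.

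Id3, which acts with Id1 in vessel growth, read 13.3, 13.8 and 11.7 with saline and 14, 12.6 and 12.5 with rhTM, and the groups were interleaved. Its log2 fold change was 0.015 (95% interval -0.28 to 0.31, exact permutation p = 0.9) and changed sign under quantile normalisation, to -0.03.

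**Figure D2:**
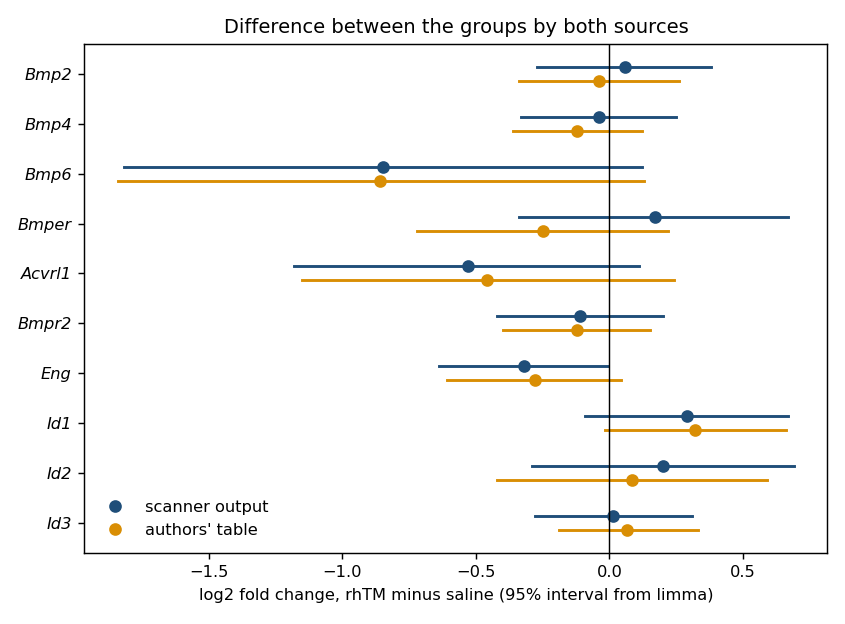
Log2 fold change of rhTM over saline for each member, as points with 95% intervals from limma, from scanner output (blue) and from the authors' table (orange). Intervals of all members but Eng by the scanner output include 0, and Bmp2 and Bmper change sign between the sources.

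Extreme values of the members fell largely on a pair of mice. rhTM replicate 1 was the lowest array for 6 members (Bmp4, Bmp6, Bmpr2, Acvrl1, Eng and Bmper) and the highest for 3, which were Id1, Id2 and Id3. Over all genes the same array was lowest for 26.6% and highest for 29.8%. Saline replicate 2 was highest for 5 members (Bmp2, Bmp4, Bmp6, Acvrl1 and Eng) and lowest for 1, Id1, and over all genes it was highest for 20.6% and lowest for 14.6%. Against the mean of the other 5 arrays, the log2 signal of rhTM replicate 1 was -1.53 for Bmp6, -0.93 for Acvrl1 and -0.33 for Eng, and 0.49 for Id1 and 0.64 for Id2. In that mouse the receptor signals were low while the Id signals were high, and Bmp2 was the member for which it lay between the other arrays. In rhTM replicate 2, by contrast, Bmpr2 was highest of all arrays and Acvrl1 lay among the saline values.

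**Figure D3:**
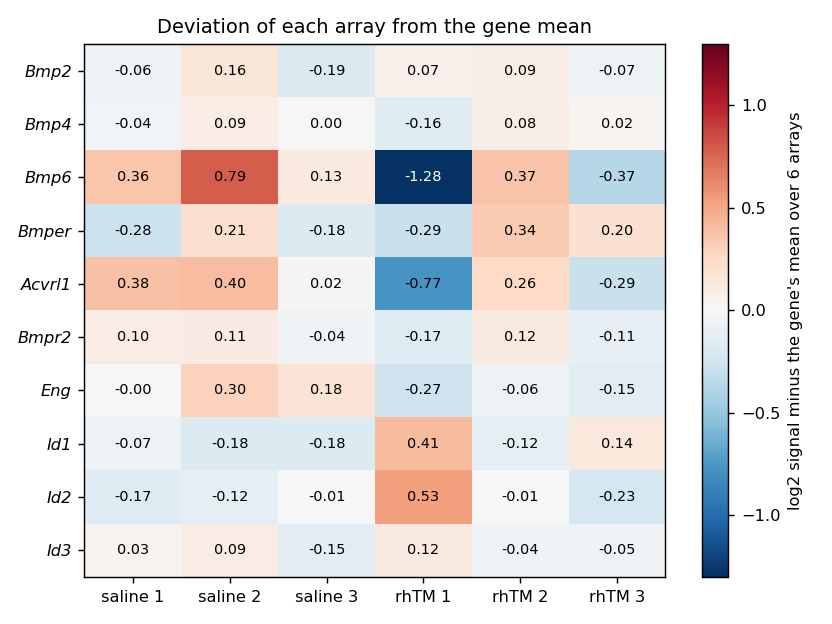
Deviation of the log2 signal of each array from the mean of the gene over 6 arrays, with members as rows and arrays as columns. The column of rhTM replicate 1 holds the lowest value of Bmp6, -1.28, and the highest of Id2, 0.53.

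The arrays of the groups were spread over 2 slides, with saline replicate 1 and rhTM replicate 3 on slide 2. By the assignment in the authors' table slide 2 holds no saline mouse, so the slide 2 values would be differences between rhTM-treated mice. By the scanner output the rhTM minus saline difference was taken within each slide, and the share of all genes agreeing in sign was not computed. It was -0.91 on slide 1 (2 mice against 2) and -0.73 on slide 2 (1 against 1) for Bmp6, and -0.47 and -0.67 for Acvrl1. For Eng the values were -0.41 and -0.14, and for Id1 0.33 and 0.21. Bmpr2 gave -0.061 and -0.22, and Bmper 0.0099 and 0.48. Signs differed for Bmp2, Bmp4, Id2 and Id3, whose slide values lay between -0.089 and 0.32. With the slide as a block, the adjusted p of the members by limma was 0.92 to 0.985.

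Genes with the most similar profile were sought for Bmp6 and Acvrl1, the members with the largest SD over the 6 arrays, by the root mean square difference of log2 signals after centring each gene. The nearest of 16369 genes to Bmp6 were Ehd2 at 0.07, Adamtsl5 at 0.091 and Prrt4 at 0.12 log2 units, with log2 fold changes of -0.72, -0.74 and -0.78. Among the members, Acvrl1 was closest to Bmp6, at place 79 with a difference of 0.27, while Bmp6 stood at place 1110 when ranked from Acvrl1. Nearest to Acvrl1 were Gm16793 at 0.049, Naa80 at 0.062 and Sh3tc2 at 0.086. Each of these 6 genes was lowest on rhTM replicate 1.

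The rest of the pathway was described through 68 genes in 6 lists, of which 55 were measured. By limma 0 passed the adjusted threshold and 1, Fstl1, had an unadjusted p under 0.05, with 23 genes higher, 32 lower and a median log2 fold change of -0.039. Groups did not overlap for 4 genes above (Fstl1, Smad1, Smad5 and Tal1) and 3 below (Tll1, Rgma and Kcp), together 12.7% of those measured against the 5.52% of all genes. Separation of 3 arrays against 3 has a probability of 0.1 where arrays are exchangeable, so no enrichment was read from these shares. All of the genes named here overlapped in the authors' table, so the genes without overlap there were different ones. The authors' table measured 54 of them, with 21 higher, 33 lower, 0 past the threshold, 11 at an unadjusted p under 0.05, a level reached by 14% of all genes in that table, and 25.9% without overlap against 21.7% of all genes.

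Of 12 other ligands, 8 were measured, 4 of them higher and 4 lower. Bmp10, an ALK1 ligand, had the smallest p of those lower, with log2 signals of -5.08, -4.49 and -4.59 in saline-treated and -4.96, -5.36 and -5.04 in rhTM-treated mice. These values lay near background, as 1 of the 3 rhTM arrays was well above it, and the log2 fold change of -0.40 was -0.049 after normexp background correction. Bmp10 passed the filter only through the saline arrays, the group where it was higher. Its rank by p partly reflects that filter and is not support for a difference. Of 9 other receptors and co-receptors, 8 were measured, 3 higher and 5 lower, with log2 fold changes from -0.26 to 0.10.

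Extracellular regulators comprised 13 measured of 18 genes, with 3 higher and 10 lower and a median log2 fold change of -0.087. Fstl1, a secreted follistatin-like glycoprotein that can bind BMP4, had log2 signals of 3.77, 3.57 and 3.57 with saline and 4.03, 3.97 and 4.41 with rhTM. All rhTM arrays were above all saline arrays, with a log2 fold change of 0.50 (SE 0.16, adjusted p = 0.9999 by limma). A second probe gave 0.44, and in the authors' table the difference was 0.37 with overlap, and 0.20 there without rhTM replicate 3. Follistatin (Fst), a binding protein of activins and BMPs, gave 0.41, which turned to -0.16 in the authors' table. The BMP antagonist Chrdl1 had log2 signals of -1.91, -1.63 and -1.76 with saline and -2.61, -1.77 and -2.56 with rhTM, so rhTM replicate 2 stood apart from the other rhTM arrays. Its log2 fold change was -0.55, its other probes gave -0.62 and -0.49, and normexp background correction gave -0.35. In the authors' table Chrdl1 gave -0.64 and its groups did not overlap. The protease Tll1, which cleaves chordin, gave -0.32 without overlap, and 0.11 by a second probe. It was -0.20 without rhTM replicate 1 and -0.23 with overlap in the authors' table, where it was -0.083 without rhTM replicate 1.

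All 12 SMADs and intracellular regulators were measured, 7 higher and 5 lower. Smad1, a transducer of BMP receptors, had log2 signals of 2.19, 2.45 and 2.57 with saline and 3.46, 2.61 and 2.71 with rhTM. The groups did not overlap but rhTM replicate 1 was far above the rest, with a log2 fold change of 0.52 (95% interval -0.062 to 1.11). It was 0.26 without that mouse, 0.25 with overlap in the authors' table, and -0.091 with both of these choices together. Smad5 gave 0.14 without overlap, -0.07 by a second probe, and 0.04 with overlap in the authors' table. The ubiquitin ligase Smurf2 gave 0.19, which was 0.043 by a second probe, 0.071 without rhTM replicate 1 and 0.32 without rhTM replicate 2. Smad9 gave -0.47, with 2 of 3 rhTM arrays well above background, -0.087 after normexp, -0.29 without rhTM replicate 1 and -0.72 without rhTM replicate 2. Like Bmp10, it passed the filter only through the saline arrays, where it was higher. Of 12 other target genes, 9 were measured, 3 higher and 6 lower, with Stmn2 at -0.51, which was -0.18 without rhTM replicate 1 and -0.79 without rhTM replicate 2. All 5 Id partners, the bHLH factors bound by Id proteins or their relatives, were measured, 3 higher and 2 lower, between -0.19 and 0.13.

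Calls arose in the pathway under settings of the authors' table alone, and the genes in this paragraph were chosen after their values were seen. By the assignment in that table, slide 1 holds all 3 saline columns and rhTM replicate 1, and slide 2 holds rhTM replicates 2 and 3. With the slide as a block, the difference is therefore that of rhTM replicate 1 alone against 3 saline mice, with that mouse assumed to vary like the others. In that fit limma called 432 genes, 2.65% of those tested, and 1 of the pathway genes, the Notch and BMP target Hes1, with a log2 fold change of 0.70 (adjusted p = 0.0488). Without the column of rhTM replicate 1, Hes1 at 1.02, the joint-forming ligand Gdf5 at 0.89 and the ALK1 ligand Gdf2 (BMP9) at -1.09 were called, among 561 genes. That setting compares saline columns of slide 1 with rhTM columns of slide 2, so treatment and slide cannot be told apart in it. By the scanner output Hes1 gave 0.31, Gdf5 0.14 and Gdf2 -0.39, each with overlapping groups. Hes1 was highest on the arrays of slide 2, saline replicate 1 and rhTM replicate 3. Its log2 signals there were 0.18 and 0.34, against -0.78 to -0.053 on slide 1. By the authors' table with all mice Hes1 gave 0.91 (adjusted p = 0.2885 by limma) and Gdf5 gave 0.72 (adjusted p = 0.3136), and Gdf2 had mean log2 signals of -2.26 with saline and -3.26 with rhTM (adjusted p = 0.3136), each without overlap. No member was called under either setting.

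**Figure D4:**
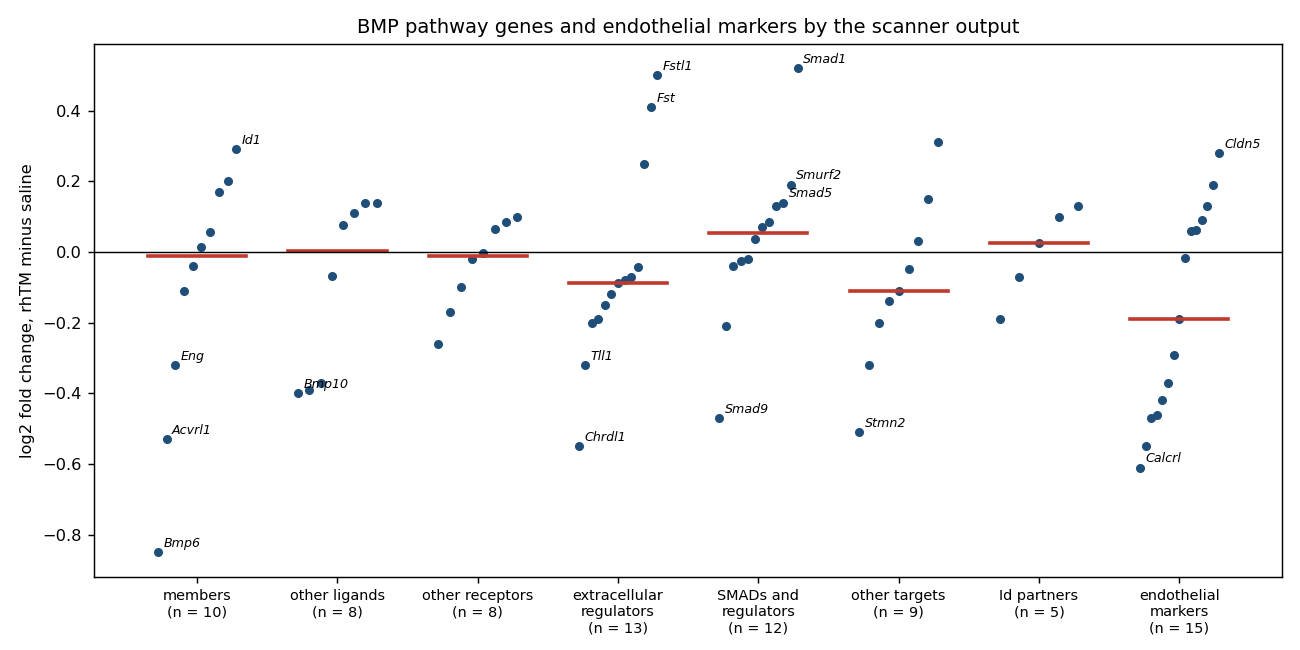
Log2 fold change of rhTM over saline by the scanner output for the members, the measured genes of the 6 other pathway lists and 15 endothelial markers, with each list's median as a red line. Medians lie between -0.19 and 0.053, and Bmp6 is the lowest point of any list.

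Several members are expressed chiefly by vascular endothelium, and in whole lung fewer endothelial cells and less RNA per cell cannot be told apart. All 15 endothelial markers were measured and well above background in at least 1 group. Of these, 6 were higher and 9 lower, the median log2 fold change was -0.19, and limma put 0 past the adjusted threshold and 0 at an unadjusted p under 0.05. By the authors' table the split was 4 higher and 11 lower, the median -0.36, and limma put 0 past the adjusted threshold and 5 at an unadjusted p under 0.05, a level that 14% of all genes reached in that table. Groups in the table did not overlap for 4 of these markers with rhTM below and 1 with rhTM above, against 12% and 9.68% of all genes. Their summed relative signal was 444 to 480 in saline-treated and 402 to 473 in rhTM-treated mice, with rhTM replicate 1 lowest. Saline replicate 2 was the highest array for 6 of the 15 markers and the lowest for 2. rhTM replicate 1 was the lowest array for 9 of them and the highest for 3. Its log2 signal against the mean of the others was -2.01 for Calcrl, -1.47 for Sox18, -0.93 for Ramp2 and -0.59 for Pecam1, but 0.70 for Cldn5, 0.49 for Kdr and 0.21 for Cdh5. Summed platelet markers were also highest there, at 27.1 against 10.1 to 14.6 on the other arrays, as were erythroid markers at 875 against 598 to 783 and neutrophil markers at 1175 against 897 to 1065. Each sum follows its brightest genes. Among these markers rhTM replicate 1 was highest for Pf4, Ppbp, Gp9, Hbb-bt, Alas2, Slc4a1, Retnlg, Csf3r, Mmp8 and Camp. It was not highest for Itga2b, Gp1bb, Hba-a1, S100a8, S100a9 or Cxcr2. Summed markers of alveolar type II cells were lowest there, at 878 against 965 to 1445. The part of these in the low Bmp6 and Acvrl1 signal was not tested.

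**Figure D5:**
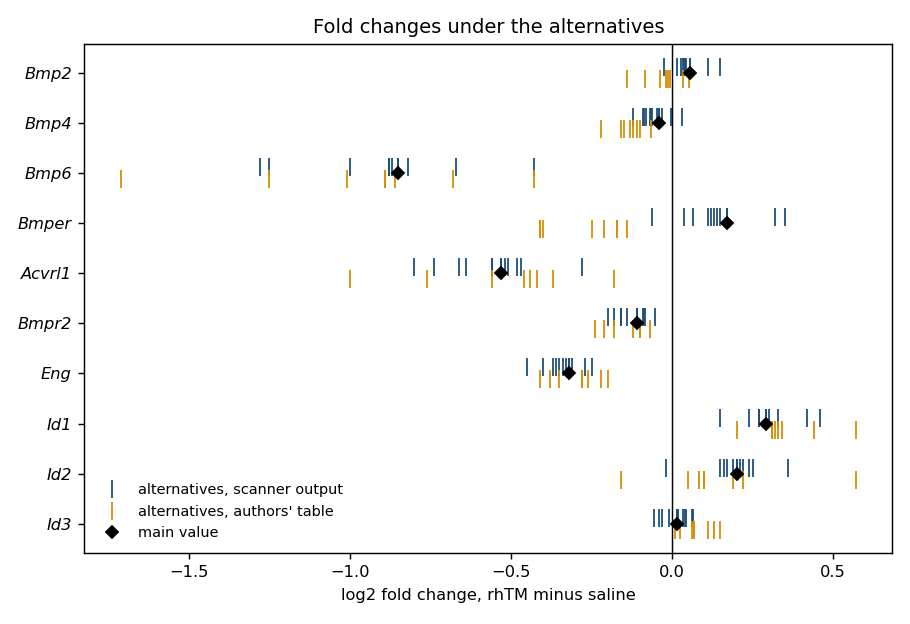
Log2 fold change of each member by the main setting (diamonds) and under 24 alternatives (ticks), blue for scanner output and orange for the authors' table. Bmp6, Bmpr2, Acvrl1 and Eng stay below 0 and Id1 above 0 under every alternative, and the other members fall on both sides. The lowest tick of Bmp6, -1.71, is rhTM replicate 1 alone against the saline mice.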

How the data were processed

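Lungs of 3 mice given saline and 3 given rhTM were measured on 1 array each, and samples were grouped by their labels. The authors deposited scanner output whose headers name Feature Extraction 10.7.3.1, while the submitters' processing notes name Agilent Feature Extraction 9.1. The processed signal in it is a linear intensity from which background was removed array by array, without scaling between arrays. A table of such intensities for the same arrays was deposited too. The methods name a simplyRNA kit for extraction and the labels an RNeasy kit.

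From these values, control spots and outlier-flagged spots were left out (398 of 56605 probes were dropped), spots of a probe were averaged, and log2 signals were scaled by the 75th percentile of each array. Accessions were matched without versions to RefSeq (GRCm38.p6), and 32994 probes matched 22911 genes. Probes well above background on all 3 arrays of a group were kept (36061), with the brightest probe per gene (16370 genes). The array was annotated on another build, so probe coordinates are not given. The comparison used limma 3.58.1 in R 4.3.3, adjusted by Benjamini-Hochberg over all genes at 0.05, and single genes by an exact permutation test. On simulated data of 16370 genes for this comparison, limma called 45% of genes shifted by 1 log2 unit and 89% of those shifted by 2. It also called 8 unshifted genes. Noise was drawn independently for each gene, without the structure that genes share on the real arrays. Both shifts were larger than the difference of any member in the main setting.

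The members and gene lists were chosen with earlier results of these data known. Of other pathway genes, the 5 higher and the 5 lower with the smallest unadjusted p were named, plus those said in the text to be chosen later. Other settings, 17 in number, were the authors' table, normexp on median signals (offset 50), quantile normalisation, scaling to probes above background everywhere, a stricter filter or none, a block for slide or for replicate number, averaging over a gene's probes, the methods' t-test, each array left out, and both exchanged arrays left out. A further 7, chosen after seeing the data, were the authors' table without each column and with the slide as a block.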

Additional observations from a re-analysis of the deposited data

How the results depend on the processing

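Under the 24 alternatives no member passed the threshold, and Bmp6, Bmpr2, Acvrl1, Eng and Id1 kept their direction in each. In the authors' table Bmp2 was -0.039, Bmper -0.25 and Fst -0.16, and 3 members were higher. With the slide as a block in that table, where the difference is that of rhTM replicate 1 alone against 3 saline mice, Bmper was -0.41, Fst -0.33, Bmp6 -1.71, Id2 0.57 (adjusted p = 0.0555 by limma, the lowest of any member), Id1 0.57, Smad1 0.92, Stmn2 -1.13, the members' median -0.23, 432 genes were called and 1 pathway gene, Hes1. Acvrl1 had a log2 signal of 2.87 in that mouse against a saline mean of 3.87 in that table. Id3 was -0.03 under quantile normalisation and -0.0088 under the percentile over probes above background on all arrays. Without both exchanged arrays Bmper was -0.063 and 5 members did not overlap, against 41.2% of all genes. The cause of these shifts was not tested.

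Leaving out 1 array, by scanner output or table, gave log2 fold changes from -0.14 to 0.15 for Bmp2, -0.16 to 0.032 for Bmp4, -0.16 to 0.36 for Id2, -0.055 to 0.13 for Id3, -0.41 to 0.35 for Bmper, -0.091 to 0.68 for Smad1, -0.44 to 0.64 for Fst and -0.021 to 0.17 for Smad5. With the direction kept, the range was -1.25 to -0.43 for Bmp6, -0.80 to -0.18 for Acvrl1, -0.21 to -0.053 for Bmpr2, -0.40 to -0.20 for Eng, 0.15 to 0.44 for Id1, 0.20 to 0.58 for Fstl1, 0.071 to 0.32 for Smurf2, -0.87 to -0.40 for Chrdl1, -0.38 to -0.083 for Tll1, -0.75 to -0.29 for Smad9 and -0.79 to -0.073 for Stmn2. Bmp10 was not measured in the authors' table, and by the scanner output alone it ranged from -0.58 to -0.28. The members' median ranged from -0.16 to 0.03, and 2 to 5 members were higher. Genes called ranged from 0 to 561 and pathway genes from 0 to 3, both highest in the table without rhTM replicate 1, where treatment and slide cannot be told apart. Members without overlap ranged from 1 to 6, highest in the table without saline replicate 3, where 33.6% of all genes did not overlap. With fewer arrays more genes separate by construction.

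Same-numbered arrays deviated from their group means with correlations of -0.30, 0.44 and -0.45, which gave no sign of pairing. Pairing is not excluded by this check. Deviations cancel within a group, and the assignment of saline replicate 1 and rhTM replicate 2 is unsettled. The highest correlation between the groups, 0.64, was that of saline replicate 1 and rhTM replicate 3, which share slide 2. With the replicate number as a block, 0 genes were called, 5 members were higher and their median was -0.013. Precision is limited by 3 arrays a group, and Bmp10 and Smad9 by signals near background.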
